A study of Mus musculus with 26 samples.

Results

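Protein phosphatase 2A (PP2A) works as a complex of a scaffold, a catalytic subunit and an interchangeable regulatory subunit. The genes described here encode 8 proteins that prepare or restrain that complex: the assembly factors Ptpa, Ppme1, Lcmt1, Igbp1 and Tiprl, the B55 inhibitors Ensa and Arpp19, and Mastl, the kinase that switches those inhibitors on. They were taken by gene symbol from the 56941 genes of a count table of mouse left ventricle, and all 8 were present once. All 8 also passed the filter on low counts, as did 15357 genes in total, although Mastl was close to the detection limit.

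The study removed Ppp2r2a, which encodes the B55 alpha regulatory subunit, from cardiomyocytes. Control mice (Ctrl; genotype aMHC-Cre0/0-Ppp2r2aL/L) carried the floxed gene without Cre and comprised 6 males and 6 females. Knockout mice (cKO; aMHC-CreTg/0-Ppp2r2aL/L) also carried a Cre transgene driven by the cardiomyocyte promoter aMHC and comprised 7 males and 7 females. All mice were 12 to 16 weeks old and had received saline from an osmotic minipump for 2 weeks. The strain label was C57BL/6N, with the Cre line described as FVB, so the background was mixed. No mice with Cre and an unfloxed gene were analysed here, so an effect of the Cre transgene cannot be told apart from that of the deletion. Poly-A RNA from about 20 mg of tissue was sequenced, 1 library per mouse.

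The library totals ran from 14403102 to 30867399 counts, and expression is given as CPM, counts per 1000000 counts of a library after scaling with TMM factors. Ppp2r2a checked the labels. Among males its mean was 37.4 ± 10.2 CPM for Ctrl (SD, n = 6) and 14.1 ± 1.81 for cKO (SD, n = 7), and among females 40.4 ± 3.60 for Ctrl (SD, n = 6) and 13.5 ± 2.07 for cKO (SD, n = 7). Every cKO mouse was below every Ctrl mouse of its sex, but Ctrl males 3 and 6, at 24.9 and 24.1 CPM, were far below the other Ctrl males (41.9 to 47.7). The female mice numbered 2 of both genotypes also stood apart, at -33.5 and -35.5 on the first principal component of deviations from group means, against -12.8 to 17.2 in the other 24 mice. Summed cardiomyocyte markers (Myh6, Actc1, Tnnt2, Tnni3, Ryr2, Pln) ran from 47951 to 67051 CPM over all mice and summed atrial markers (Myl7, Sln, Myl4) from 1.14 to 2.31 CPM. Because whole tissue was sequenced, fewer cells of a type and less RNA per cell cannot be told apart in any value below.

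Newly made catalytic subunit is inactive or unstable on its own. Igbp1 (alpha4) and Tiprl bind the free catalytic subunit, Ptpa activates it, and Lcmt1 methylates its carboxyl terminus, which favours the binding of B55 subunits, while Ppme1 removes that methyl group. Finished PP2A-B55 opposes cyclin-dependent kinases, and at mitotic entry Mastl (Greatwall) phosphorylates Ensa and Arpp19, which then occupy and block the B55 form of the enzyme. In heart muscle, where cardiomyocytes rarely divide, the same proteins are present and the phosphatase acts on contractile and signalling proteins.

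The codons of the Greatwall site are shown for the inhibitor pair because they carry the function that sets these genes apart, and because they show how far reads of the near relatives could be confused. Both stretches are coding sequence of the longest coding transcripts in GENCODE M21, 90 bases each, read 5′ to 3′, with the 18 bases of the site and its surrounding codons in capitals.
Ensa: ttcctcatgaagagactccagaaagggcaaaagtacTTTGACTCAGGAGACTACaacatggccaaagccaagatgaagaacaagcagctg
Arpp19: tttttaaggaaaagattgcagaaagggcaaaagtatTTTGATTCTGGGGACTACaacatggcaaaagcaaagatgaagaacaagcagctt
The Ensa stretch covers bases 157 to 246 of a 354-base coding sequence on chromosome 3, and the Arpp19 stretch bases 142 to 231 of 339 on chromosome 9. The phosphorylated serine falls at codon 67 in Ensa and codon 62 in Arpp19. Between the 2 genes 76 of the 90 bases were identical, including 15 of the 18 in capitals. Bases that could encode the site were present in 2 of 2 coding transcripts of Ensa and 9 of 9 of Arpp19. This search covered whole transcripts, and the reading frame was checked only in the transcripts printed here. On the sense strand, bases that could encode the same residues occurred in coding transcripts of 3 of 21901 coding genes (0.0137%), the other being Lrit1. For Lrit1 neither the reading frame nor the position within the transcript was checked. The longest run of bases shared by any Ensa and any Arpp19 transcript was 20, and no longer exact stretch was common to both genes.

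Levels were first compared between genes per kilobase of the longest transcript, as CPM per kb. Ensa was highest at 32.7 ± 1.78 CPM per kb (SD over 26 mice), above Ptpa in 26 of 26 mice. Ptpa (19.2 ± 1.29), Arpp19 (17.5 ± 0.965) and Ppme1 (16.6 ± 1.26) lay close together: Ptpa exceeded Arpp19 in 24 of 26 mice, but Arpp19 exceeded Ppme1 in only 18. Ppme1 exceeded Lcmt1 in 26 of 26 mice. Lcmt1 (9.10 ± 0.775 CPM per kb), Igbp1 (8.29 ± 0.460) and Tiprl (6.80 ± 0.523) followed, with Lcmt1 above Igbp1 in 23 and Igbp1 above Tiprl in 25 of 26 mice. The place of Lcmt1 rests on the lengths used, 1.767 kb for Lcmt1, 4.695 for Igbp1 and 4.38 for Tiprl. In CPM alone its mean was below those of Igbp1 and Tiprl in every group (17.25, 39.8 and 31.4 in Ctrl males). Which transcripts the ventricle used was not tested. Mastl stood far below all others, at 0.0836 ± 0.0330 CPM per kb. Transcripts of both inhibitors were thus among the more abundant of the 8, and those of their activating kinase were barely detected.

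**Figure D1:**
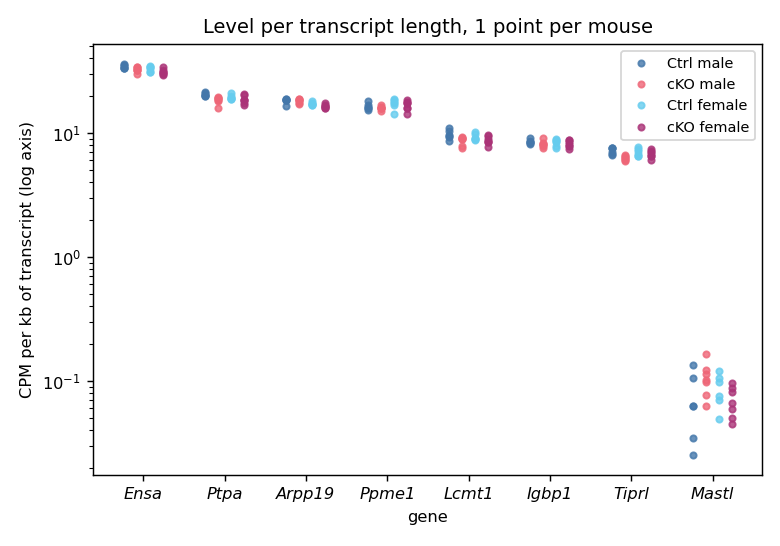
CPM per kb of longest transcript (log axis) for each gene, 1 point per mouse and 1 colour per group. Ensa lies highest at a mean of 32.7 CPM per kb, and Mastl lowest at 0.0836.

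The assembly factors were compared first by genotype in males. In that comparison 0 of 8 genes passed an adjusted p under 0.05 in edgeR's quasi-likelihood test, against 0.443% of all genes tested. At an unadjusted p under 0.05 there were 3, Ptpa, Lcmt1 and Tiprl, all lower in cKO, against 13.2% of all genes in either direction and 7.09% lower. DESeq2's Wald test called 1 of the 8, Tiprl, against 5.04% of the 7914 genes to which it gave an adjusted p. Mastl was not among those 7914 genes.

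Ptpa, the phosphatase activator, was the 1 gene of the 8 whose male groups did not overlap, against 1.28% of all genes tested in either direction. Its lowest, median and highest values were 73.9, 75.4 and 80.5 CPM in Ctrl males and 59.3, 70.3 and 72.5 in cKO males. All 7 cKO males were below the lowest Ctrl male, a separation that 0.873% of all genes showed in that direction. The log2 fold change was -0.15 (SE 0.05, 95% interval -0.25 to -0.05) with unadjusted p = 0.0044 and edgeR adjusted p = 0.138. In females, Ptpa ran from 69.7 to 78.0 CPM in Ctrl and from 63.2 to 77.3 in cKO, with medians of 71.7 and 69.5. Of the 7 cKO females 5 were below the lowest Ctrl female, and the other values overlapped (log2 fold change -0.06, SE 0.05).

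Tiprl, which binds and restrains the catalytic subunit, had the smallest unadjusted p of the 8 in males. The values were 28.9, 32.0 and 33.2 CPM (lowest, median, highest) in Ctrl males and 26.1, 27.3 and 29.2 in cKO males. Of the 7 cKO males 6 were below every Ctrl male. The log2 fold change was -0.19 (SE 0.05, 95% interval -0.30 to -0.08), with unadjusted p = 0.0017 and edgeR adjusted p = 0.0953. DESeq2 gave -0.18 and an adjusted p of 0.0266, over 7914 genes after its own filtering. In females the groups ran from 28.3 to 33.6 and from 26.8 to 32.8 CPM and overlapped (log2 fold change -0.04, SE 0.05).

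Lcmt1, the methyltransferase of the catalytic subunit, was at 15.4, 16.9 and 19.5 CPM in Ctrl males and 13.4, 15.9 and 16.3 in cKO males (lowest, median, highest). All 7 cKO males were below the Ctrl mean, but only 2 were below the lowest Ctrl male. The log2 fold change was -0.17 (SE 0.06, unadjusted p = 0.0159, edgeR adjusted p = 0.244). It was -0.10 (unadjusted p = 0.12) when counts were adjusted per library for transcript length and GC content. In females Lcmt1 ran from 15.5 to 17.9 CPM in Ctrl and from 13.6 to 17.1 in cKO, and 4 of 7 cKO females were below the Ctrl range (log2 fold change -0.08, SE 0.07).

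Ppme1, the methylesterase that opposes Lcmt1, had overlapping ranges in both genotypes of each sex. In males the values ran from 42.7 to 50.6 CPM in Ctrl and from 41.3 to 46.8 in cKO (log2 fold change -0.05, SE 0.06, 95% interval -0.17 to 0.08). In females they ran from 39.3 to 52.0 and from 39.5 to 51.5 CPM (log2 fold change -0.04, SE 0.06, 95% interval -0.16 to 0.08). The lowest female of each genotype was the mouse numbered 2, one of the pair that stood apart over all genes. The log2 ratio of Lcmt1 to Ppme1 counts within a library had medians of -1.42 in Ctrl males, -1.47 in cKO males, -1.55 in Ctrl females and -1.56 in cKO females. Its means were -1.40, -1.52, -1.54 and -1.58 in the same order. The SDs of this ratio within groups were 0.11 to 0.17, so no group stood clear of another.

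Igbp1, the X-linked chaperone of free catalytic subunits, varied little. It ran from 38.6 to 42.4 CPM in Ctrl males and from 35.6 to 42.5 in cKO males, where 5 of 7 mice were below the Ctrl range but 1 was above it. The log2 fold change was -0.06 (SE 0.05, 95% interval -0.16 to 0.04). In females it ran from 35.5 to 41.7 and from 34.8 to 41.4 CPM, overlapping almost completely (log2 fold change -0.03, SE 0.05).

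**Figure D2:**
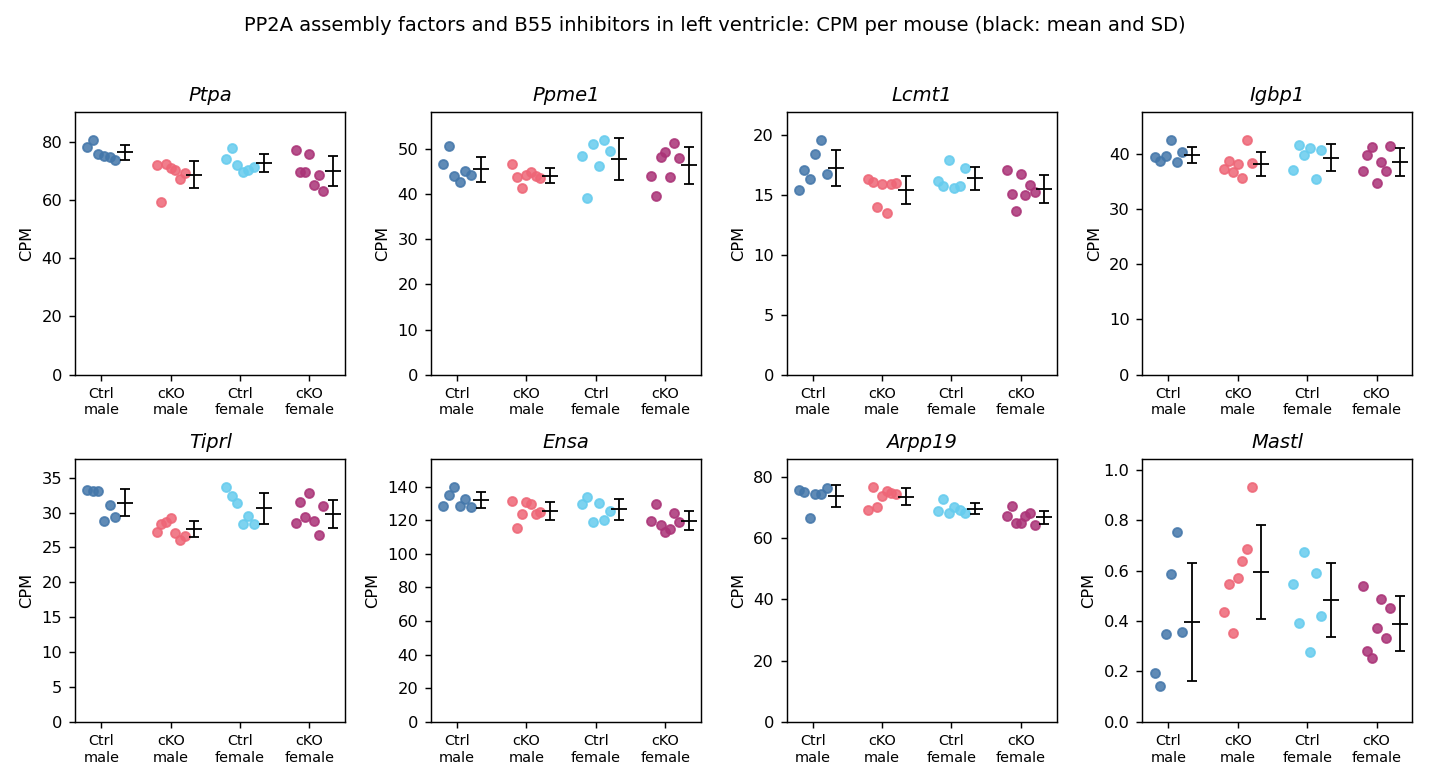
CPM of the 8 genes in each mouse, by group, with the group mean and SD in black; axes start at 0. In males the cKO points of Ptpa (59.3 to 72.5) lie below all Ctrl points (73.9 to 80.5), and in cKO females the Arpp19 points (64.3 to 70.4) lie mostly below those of cKO males (69.0 to 76.5).

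Neither of the inhibitors Ensa and Arpp19 reached an unadjusted p under 0.05 in edgeR between genotypes within a sex. DESeq2's Wald test gave Ensa an unadjusted p of 0.0468 in females (adjusted p = 0.901). Ensa was at 127.6, 130.7 and 139.5 CPM in Ctrl males and 115.2, 124.8 and 131.2 in cKO males (lowest, median, highest). The corresponding female values were 118.7, 127.6 and 134.1 in Ctrl and 113.0, 119.2 and 129.9 in cKO. In both sexes cKO was slightly lower with overlapping groups: the log2 fold changes were -0.07 (SE 0.04, unadjusted p = 0.0957) in males and -0.08 (SE 0.04, unadjusted p = 0.0706) in females. Arpp19 was at 66.4, 74.9 and 76.3 CPM in Ctrl males and 69.0, 74.4 and 76.5 in cKO males, with a log2 fold change of -0.01 (SE 0.04, 95% interval -0.08 to 0.07). In females it was at 68.3, 69.0 and 72.9 CPM in Ctrl and 64.3, 67.1 and 70.4 in cKO. Of the 7 cKO females 6 were below the lowest Ctrl female, and the log2 fold change was -0.06 (SE 0.04, unadjusted p = 0.114).

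Mastl, the Greatwall kinase, had 3 to 19 counts per library in Ctrl males, 7 to 24 in cKO males, 7 to 13 in Ctrl females and 4 to 11 in cKO females. These are 0.397 ± 0.234, 0.594 ± 0.187, 0.483 ± 0.147 and 0.388 ± 0.109 CPM in the same order of groups (SD, n = 6 or 7). The log2 fold change between genotypes was 0.56 (SE 0.30, 95% interval -0.05 to 1.18, unadjusted p = 0.0704) in males and -0.27 (SE 0.32) in females. At this depth counting error alone gives a coefficient of variation of 27.3% to 36.7%, and the intervals include both no difference and one larger than that of any other of the 8.

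In females 0 of 8 genes passed in edgeR, against 0.0326% of all genes, and 0 reached an edgeR unadjusted p under 0.05, against 5.15%. DESeq2 called 0 of 8 at its adjusted p. The female groups overlapped for all 8, and 0.169% of all genes had groups that did not. The median log2 fold change of the 8 was -0.06, all 8 being below 0, against 0.00 over all genes tested. Of all genes, 7510 of 15357 were below 0 in females. In males the median of the 8 was -0.07, with 7 of 8 below 0, against 7640 of 15357 genes. Across the mean of both sexes 0 of 8 passed by either tool, against 1.33% of all genes by edgeR. DESeq2 called 549 of the 9104 genes to which it gave an adjusted p, and Mastl was not among those 9104. At an unadjusted p under 0.05 there were 4, all lower, against 14.1% of all genes in either direction and 7.7% lower. They were Ptpa (log2 fold change -0.10, edgeR adjusted p = 0.132), Tiprl (-0.11, adjusted p = 0.141), Lcmt1 (-0.12, adjusted p = 0.193) and Ensa (-0.08, adjusted p = 0.214). Without Ctrl males 3 and 6, the male values of Ptpa (-0.17, edgeR adjusted p = 0.178) and Tiprl (-0.19, adjusted p = 0.141) kept their direction. Summed cardiomyocyte markers had lower medians in cKO of both sexes, with overlapping ranges. The medians were 53824 CPM in cKO males against 56930 in Ctrl males, and 57947 in cKO females against 60106 in Ctrl females. By log2 fold change 5 of 6 markers were lower in cKO males and 6 of 6 in cKO females. In males Tnni3 was the 1 marker of 6 called by edgeR (log2 fold change -0.24, adjusted p = 0.0316), while DESeq2 called 2, Tnni3 and Tnnt2. In females neither tool called a marker. The part of these markers in the values of Ptpa, Tiprl and Lcmt1 was not tested.

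Whether the genotype difference depended on sex was tested as an interaction. In edgeR 0 of 8 genes passed, against 0.0% of all genes, and 0 reached an unadjusted p under 0.05, against 3.96%. DESeq2 also called 0. The smallest p was that of Tiprl (female minus male effect 0.15 log2, SE 0.08, edgeR unadjusted p = 0.0621, adjusted p = 0.999). Mastl followed (-0.83, SE 0.44, unadjusted p = 0.0702), and the lower male values of Ptpa and Tiprl were not shown to differ from the female ones. For Ptpa the difference was 0.10 (95% interval -0.05 to 0.24).

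**Figure D3:**
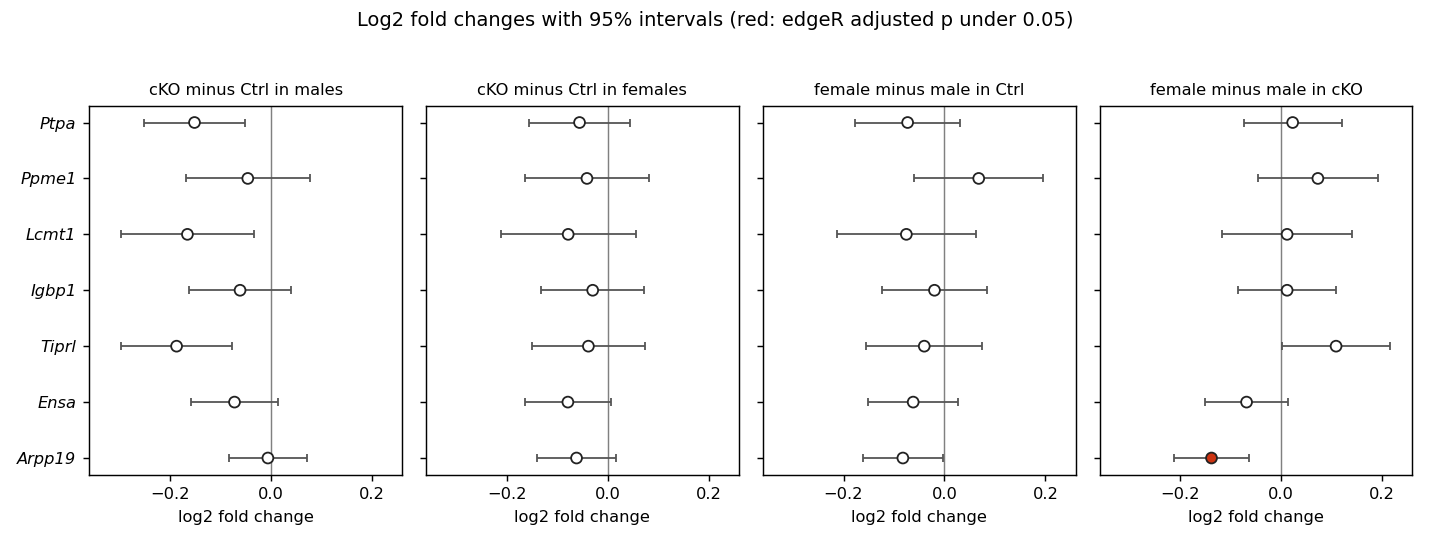
Log2 fold changes with 95% intervals for 7 of the genes in 4 comparisons; Mastl is left out because its intervals are several times wider. Filled red marks an edgeR adjusted p under 0.05, reached by Arpp19 between the sexes in cKO mice (-0.14).

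Arpp19 was the 1 gene of the 8 called between the sexes. Among cKO mice it was lower in females, at 66.7 ± 2.19 CPM (SD, n = 7) against 73.4 ± 2.78 in males (SD, n = 7), a change of -9.13%. All 7 females were below the male mean and 6 were below the lowest male (69.0 CPM). The log2 fold change was -0.14 (SE 0.04, 95% interval -0.21 to -0.06, edgeR adjusted p = 0.036). This was 1 of 8 genes called, against 2.7% of all genes tested in either direction and 1.27% lower. At an unadjusted p under 0.05 there were 2 of 8, Arpp19 and Tiprl, against 17.3%. The male and female cKO ranges overlapped for all 8 genes, while 1.09% of all genes had ranges that did not. In Ctrl mice 0 of 8 genes passed in edgeR, against 0.638% of all genes, and 0 by DESeq2. There Arpp19 was 1 of 8 at an unadjusted p under 0.05, against 12.1% of all genes (69.6 ± 1.76 CPM in females, SD, n = 6; 73.7 ± 3.65 in males, SD, n = 6; log2 fold change -0.08, SE 0.04, unadjusted p = 0.0439, edgeR adjusted p = 0.395). All 6 Ctrl females were below the male mean, but none was below Ctrl male 3, at 66.4 CPM, while the other 5 Ctrl males were at 74.3 or above. For all 8 genes the Ctrl ranges of the sexes overlapped, against 1.02% of all genes whose ranges did not. The sex difference itself did not differ detectably between genotypes (interaction -0.06, SE 0.05, unadjusted p = 0.304).

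Averaged over both genotypes, Arpp19 was again lower in females (log2 fold change -0.11, SE 0.03, 95% interval -0.16 to -0.06, edgeR adjusted p = 0.0106), 1 of 8 genes called against 7.71% of all genes in either direction and 3.69% lower. With Ensa, 2 of 8 reached an unadjusted p under 0.05, against 22.2%. Cardiomyocyte markers moved the other way in cKO mice, with median sums of 57947 CPM in females and 53824 in males. Tnni3 was the 1 of 6 called by either tool (log2 fold change 0.24, edgeR adjusted p = 0.00821). Macrophage markers (Csf1r, C1qa, Adgre1, Cd68) moved the same way as Arpp19. In cKO mice and averaged, 4 of 4 were lower in females, with 0 called. Averaged over genotypes, edgeR called Dcn lower (-0.22, adjusted p = 0.0388) and Lum higher (0.33, adjusted p = 0.0179) in females, both fibroblast markers. Acta2, a smooth muscle marker, was also higher (0.47, adjusted p = 0.0178). The part of any of these markers in the Arpp19 difference was not tested. Both Arpp19 calls depended on the processing. With counts adjusted per library for transcript length and GC content the value in cKO mice was -0.08 (edgeR adjusted p = 0.24) and the mean was -0.07 (adjusted p = 0.14). The longest Arpp19 transcript had a GC content of 40.7%, the lowest of the 8. In cKO mice the call was also lost without any 1 of cKO males 2, 4, 5, 6 and 7 or cKO females 3, 4 and 7, with values of -0.14 to -0.13 and adjusted p of 0.0560 to 0.0833. The averaged call held without each mouse in turn (adjusted p 0.00321 to 0.0201) and without Ctrl males 3 and 6 (-0.12, adjusted p = 0.0070).

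**Figure D4:**
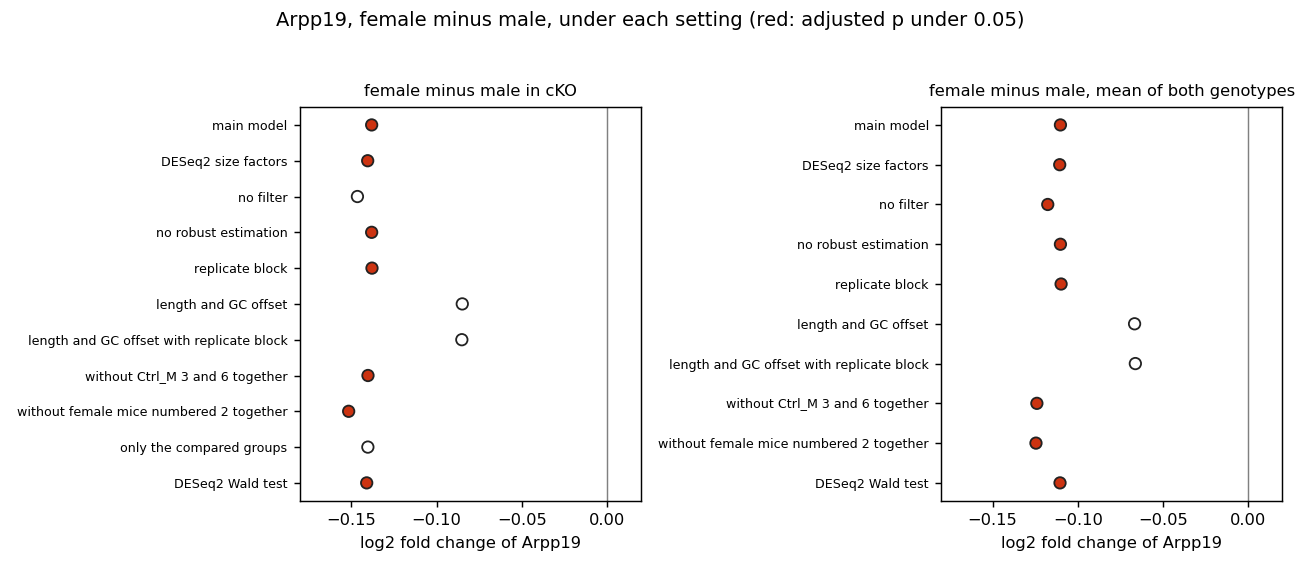
Log2 fold change of Arpp19, female minus male, in cKO mice (left) and averaged over genotypes (right), under each processing setting; filled red marks an adjusted p under 0.05. The value stays below 0 throughout and moves nearest to 0 with the length and GC offset (-0.08 and -0.07).

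Ensa, the close relative of Arpp19, had a female minus male log2 difference of -0.07 averaged over genotypes (SE 0.03, unadjusted p = 0.0358, edgeR adjusted p = 0.184). The log2 ratio of Arpp19 to Ensa counts within a library had medians of -0.81 in Ctrl males, -0.78 in cKO males, -0.88 in Ctrl females and -0.85 in cKO females. Its range was -1.07 to -0.74 in Ctrl males and -0.93 to -0.59 in cKO males, and narrower in females, at -0.91 to -0.80 and -0.89 to -0.78. The male and female ranges therefore overlapped within each genotype. Among the assembly factors, Tiprl was higher in cKO females than in cKO males at an unadjusted p only (log2 difference 0.11, SE 0.05, unadjusted p = 0.0468, edgeR adjusted p = 0.28). Ppme1 was 0.07 higher in females (SE 0.04, edgeR adjusted p = 0.345), and 0.11 higher without the female mice numbered 2 (adjusted p = 0.0399). Mastl was lower in cKO females than in cKO males by a log2 difference of -0.59 (SE 0.30, unadjusted p = 0.0611).

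Mitotic genes are given beside Mastl, whose kinase acts at mitotic entry. The sum of Cdk1, Ccna2, Ccnb1, Ccnb2, Plk1, Bub1, Mki67 and Top2a had medians of 14.6 CPM in Ctrl males, 25.2 in cKO males, 15.3 in Ctrl females and 10.2 in cKO females, the same order of genotypes within each sex as the mean of Mastl. In males 0 of the 8 mitotic genes passed in edgeR, while 5 were higher in cKO at an unadjusted p under 0.05, against 6.11% of all genes, and DESeq2 called 0. Among cKO mice, 1 of the 8 passed between the sexes in edgeR, against 2.7% of all genes in either direction and 1.27% lower. It was Ccnb1, which encodes cyclin B1 (log2 fold change -1.25, SE 0.33, edgeR adjusted p = 0.0385). Its level was low and the groups overlapped, at 0.126 to 0.856 CPM in cKO females and 0.695 to 1.49 in cKO males. All 8 mitotic genes were lower in females at an unadjusted p under 0.05, against 8.15% of all genes. Whether the cells that carry these transcripts also carry the Mastl transcripts was not tested.

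The wider network was followed through fixed lists. Of 19 PP2A subunit genes 17 were tested, and Ppp2r2a was the 1 called between genotypes by edgeR, in each sex (log2 fold change -1.40 in males and -1.58 in females). Of all genes tested, 0.443% were called in males and 0.0326% in females. Averaged over the sexes, DESeq2 called 2, Ppp2r1a and Ppp2r2a, against 549 of the 9104 genes to which it gave an adjusted p. Between the sexes 2 other subunits passed in edgeR, Strn3 in cKO mice and both Strn3 and Ppp2r1a in the average over genotypes. The shares of all genes called in these comparisons were 2.7% and 7.71%. In the average DESeq2 called Strn3, Ppp2r1a and Ppp2r5c, against 1488 of 15357 genes. Strn3, a striatin that serves as a regulatory subunit, was lower in cKO females than in cKO males (77.9 ± 3.83 CPM against 88.7 ± 5.06, SD, n = 7 each; log2 fold change -0.19, edgeR adjusted p = 0.0334). Ppp2r1a, the main scaffold subunit, was higher in females averaged over genotypes (log2 fold change 0.11, edgeR adjusted p = 0.0159), with group means of 163.9 and 154.2 CPM in Ctrl and cKO males and 176.5 and 167.4 in Ctrl and cKO females. Of 6 further PP2A inhibitors all were tested and 0 were called in any comparison by edgeR or DESeq2. In males 2 of the 6 reached an edgeR unadjusted p under 0.05, against 13.2% of all genes. They were Fam122b (log2 fold change 0.36, edgeR adjusted p = 0.255) and Anp32a (-0.13, adjusted p = 0.279). Fam122a, which like Ensa and Arpp19 inhibits the B55 form, was at 11.2 ± 0.605 CPM in Ctrl males, 11.9 ± 1.06 in cKO males, 11.8 ± 1.15 in Ctrl females and 11.9 ± 0.773 in cKO females (SD, n = 6, 7, 6 and 7). Of 9 genes of the related phosphatases PP4 and PP6, which also bind Igbp1 and Tiprl, 0 were called in any comparison by edgeR or DESeq2. Of the 9, 1 reached an edgeR unadjusted p under 0.05 in males, against 13.2% of all genes.

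The assembly factors and inhibitors varied little between mice of a group. The biological coefficient of variation, the spread beyond counting error as edgeR estimates it, was 5.19% for Arpp19, 5.95% for Ensa, 6.23% for Igbp1, 6.52% for Ptpa, 6.72% for Tiprl, 7.47% for Lcmt1 and 7.66% for Ppme1. Genes of similar abundance had trend values of 10.2% to 12.8%, so each of these 7 was below the trend. Mastl, with few counts, was at 24.0% against a trend of 27.5%.

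Deviations of log2 CPM from the group means were then correlated over the 26 mice, for all 28 pairs of the 8 genes and for each of the 8 with Ppp2r2a. Of these 36 pairs 0 passed a permutation test (100000 resamples, two-sided) after Benjamini-Hochberg adjustment. The largest correlation was between Lcmt1 and Mastl (Pearson r = 0.56, permutation p = 0.0029, adjusted 0.104; Spearman rho = 0.49, p = 0.0115, adjusted 0.211), and r was 0.56 again without the 2 mice farthest from the median of Lcmt1. For Ptpa and Tiprl, the pair with the smallest p between male genotypes, r was 0.29 (permutation p = 0.155, adjusted 0.557) and rho 0.49 (p = 0.0117, adjusted 0.211), with r = 0.52 without the 2 mice farthest from the median of Ptpa. No correlation was detected between Arpp19 and Ensa (r = -0.02, rho = 0.09; permutation p = 0.938 and 0.665, adjusted 0.976 and 0.948). Arpp19 and Ppp2r2a had r = 0.36 (permutation p = 0.07, adjusted 0.456; rho = 0.26, p = 0.193, adjusted 0.547), which fell to 0.06 without the 2 mice farthest from the median of Arpp19, so it rests on those mice.

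**Figure D5:**
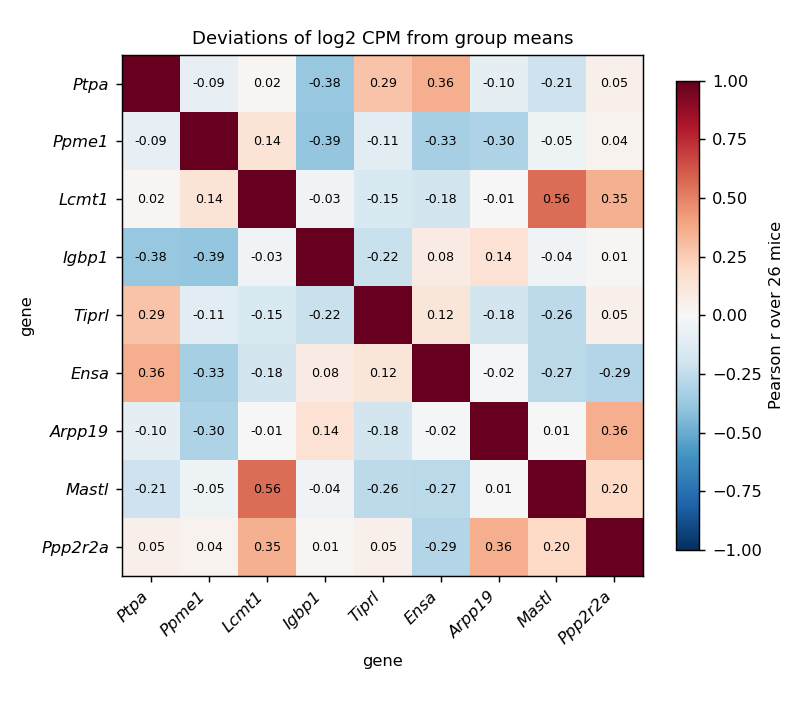
Pearson r of the deviations of log2 CPM from group means over 26 mice, for the 8 genes and Ppp2r2a (colour from -1 to 1, value in each cell). The strongest cell off the diagonal is that of Lcmt1 and Mastl (0.56), and all others lie between -0.4 and 0.4.

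The 3 tested genes with the deviations most like those of each gene are given as a description, since all points share library and depth. For Ptpa they were Atp9a, Eif4h and Jph2 (r = 0.80 each), the last encoding the junctophilin of cardiac dyads. Ppme1 was most like Rptor (0.89), which encodes Raptor of the mTORC1 complex, then Cyp2u1 (0.84) and Abca2 (0.82). Without the female mice numbered 2 the values for Ppme1 were 0.80, 0.66 and 0.65.

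For Lcmt1 the nearest were Sf3b4 (0.72), Clec2i (0.68) and Npl (0.64), for Tiprl Ccdc186 (0.71), Zfp963 (0.69) and AW209491 (0.68), and for Mastl Lrrc10b (0.72), Grk5 (0.71) and Cxcl16 (0.70). Igbp1 was most like Lilrb4a (0.74), Swap70 (0.72) and Csf2rb2 (0.71). Ensa was most like Slc41a2 (0.74), Rasgef1b (0.74) and Psmb4 (0.72), and Arpp19 like C1d (0.70), Tmem37 (0.70) and Saxo2 (0.67). No gene appeared in more than 1 of these 8 sets of 3. Without the female mice numbered 2 the values for Ensa were 0.66, 0.66 and 0.59 and those for Arpp19 0.62, 0.63 and 0.59.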

How the data were processed

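The authors deposited 1 table of raw counts per gene for 26 left ventricle libraries. Per the submitters' processing notes it came from FastQC 0.74, cutadapt 4.6, STAR 2.7.11a and HTSeq on GRCm39; the annotation release, HTSeq version and strand setting are not given in the sources used here. Samples were grouped by the labelled genotype and sex.

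Counts were tested with edgeR 4.0.16 (R 4.3.3): filterByExpr with a minimum count of 10, TMM, robust quasi-likelihood fit of 1 mean per group over all mice, and Benjamini-Hochberg adjustment over 15357 genes at 0.05. The code was tested on simulated data. DESeq2 1.42.0, other scalings and filters, a length and GC offset (known for 98.27% of tested genes), a replicate block and omitted mice were tried as alternatives. CPM and correlations used a prior count of 2 only for log2 values. Lengths, chromosomes and sequences came from GENCODE M21, an annotation of another build, so no coordinates are given. Replicate libraries differed beyond counting noise (chi-square per degree of freedom 7.79 to 36.4 over 72 pairs).

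Members and lists were chosen with earlier results of these data known. Named genes were all 8 members, Ppp2r2a, list genes past the edgeR threshold in any comparison and the 3 genes most like each member. Fam122a, Fam122b, Anp32a, Tnnt2, Ppp2r5c, the macrophage markers and mice named for standing apart were chosen after their values were seen. Fam122a and Fam122b are older symbols of Pabir1 and Pabir2.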

Additional observations from a re-analysis of the deposited data

Results flagged for a closer look

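Over the 8 genes and 4 groups, 32 sets of mice were searched for a single mouse far from the rest of its group, and 2 were found; chance alone gives about 1 in 20. Ptpa was at 59.3 CPM in cKO male 2, while the next lowest cKO male was at 67.3 and the highest at 72.5. Arpp19 was at 66.4 CPM in Ctrl male 3, while the next lowest Ctrl male was at 74.3 and the highest at 76.3. Ctrl male 3 also had a low Ppp2r2a level (24.9 CPM), but Ctrl male 6, whose Ppp2r2a level was 24.1 CPM, had the highest Arpp19 level of its group (76.3 CPM).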

How the results depend on the processing

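Apart from leaving out single mice, 534 log2 fold changes were recomputed under alternatives, and 517 kept their direction and side of the threshold. Correlations were also recomputed without the 2 mice farthest from the median of the first gene. That of Ppme1 with Ensa went from -0.33 to 0.03 and with Arpp19 from -0.30 to -0.02. The correlation of Ptpa with Tiprl rose from 0.29 to 0.52. With DESeq2's Wald test 1 gene in place of 0 was called between genotypes in males (Tiprl, -0.18, adjusted p = 0.0266). Between the sexes in cKO mice the call of Arpp19 became 0 calls with no filter (-0.15, adjusted p = 0.116), with a length and GC offset (-0.08, adjusted p = 0.24), with that offset and the replicate block (-0.09, adjusted p = 0.229) and with only the compared groups fitted (-0.14, adjusted p = 0.0615); leaving out 1 mouse gave 0 to 1 calls. Averaged over genotypes it became 0 with the offset (-0.07, adjusted p = 0.14) and with offset and block (-0.07, adjusted p = 0.138). Without the female mice numbered 2, an alternative chosen after seeing the data, 2 genes were called there, Ppme1 (0.11, adjusted p = 0.0399) being the other. The causes were not tested.

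Values near 0 changed sign. With the offset, and with offset and block, the Ppme1 interaction was -0.0103 and -0.00899 (-0.0109 without the female mice numbered 2; 0.0047 as reported), the Igbp1 sex difference 0.00758 and 0.00669 in Ctrl (-0.0197) and 0.0358 and 0.0359 averaged (-0.0040), and the Lcmt1 sex difference in cKO -0.00017 and -0.0014 (0.0117). Leaving out 1 mouse changed the sign of 40 of 1040 values: Arpp19 between genotypes in males (-0.0350 to 0.00818), the interactions of Ppme1 (-0.0458 to 0.0387) and Ensa (-0.0272 to 0.0106), the sex differences in cKO of Ptpa (-0.0104 to 0.0456), Lcmt1 (-0.0200 to 0.0382) and Igbp1 (-0.00719 to 0.0380), and that of Igbp1 in Ctrl (-0.0375 to 0.00681) and averaged (-0.0138 to 0.00910).

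The deviations of same-numbered mice correlated over 0.1 in 0 of 6 male pairs (mean r -0.0259) and 3 of 6 female pairs (mean r 0.118, against -0.0186 for other female pairs). Same-numbered females were thus more alike on average than other female pairs, with r up to 0.404, and same-numbered males were not. The main fit did not pair mice by number, and a replicate block was run as an alternative. Why some same-numbered females were alike was not tested. With the replicate block Arpp19 differed between the sexes by -0.14 in cKO (adjusted p = 0.0395) and -0.11 averaged (adjusted p = 0.0108), and no call on the 8 genes changed. Over all genes the calls between genotypes in males numbered 68 as reported, 4 without Ctrl male 5, 7 without Ctrl males 3 and 6, 11 with the offset and 399 with DESeq2; in cKO mice those between the sexes numbered 414, 244 with no filter and 707 with DESeq2. Depth limits Mastl, with at most 24 counts per library.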
